A study of Mus musculus with 12 samples.

Results

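Early ethanol exposure was compared with saline in the adult mouse hippocampus across 2 kinds of housing, and the genes described here are those that lay in the same direction in both. All 12 libraries of the series entered, 6 from ethanol and 6 from saline mice with housing as a factor. Of the 36119 genes in the deposited table, 14947 had a mean value of at least 1 and were tested. The members were chosen by that mean alone: the gene just inside was the pseudogene Gm12854, with a mean of 1.0003 and values from 0 to 4.16, and just outside lay Fam167a, with values from 0.444 to 2.15. C57BL/6 pups received ethanol at 2.5 g/kg in 0.15 M saline under the skin, 2 injections 2 hours apart on postnatal days 6 and 7, or the same volume of saline. Housing was standard or enriched from postnatal day 21; an enriched cage housed 2 to 6 littermates of 1 sex with wheels, toys and added nest material. Tissue was taken at postnatal day 70. This gave 4 groups of 3 libraries, named by housing and then injection: standard saline and enriched saline, standard ethanol and enriched ethanol. The series is presented as a model of fetal alcohol spectrum disorder and its labels call the exposure prenatal, but all injections were given after birth, and every control pup was also injected.

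Alcohol given to rodent pups in their first postnatal days reaches the brain during its growth spurt, the stage that lies before birth in humans, when synapses form, oligodendrocytes begin to mature and many neurons can undergo apoptosis. The hippocampus keeps adding neurons afterwards: progenitors in the dentate gyrus pass through a stage marked by Sox11 and doublecortin before they become granule cells. Oligodendrocytes, which wrap axons in myelin, also arise from precursors over the same weeks.

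Pyramidal and granule cell genes were present in every library: the vesicular glutamate transporter gene Slc17a7 lay between 475 and 619, the pyramidal gene Neurod6 between 104 and 152, the CA1 gene Wfs1 between 40.9 and 85.8 and the granule cell gene Prox1 between 18.7 and 41.9, in deposited TPM, a transcript abundance scaled for length and library. Ddx3y, on the Y chromosome, was at 38.5 to 47.0 throughout. Markers of neighbouring tissue or of cell types set 3 libraries apart. Transthyretin (Ttr), abundant in choroid plexus, reached 7503 in enriched saline replicate 2 and 385 in standard ethanol replicate 1, against 20.8 to 118 elsewhere. On the log2 scale, standard saline replicate 2 exceeded the 12-library mean by 0.49 in granule cell markers, the highest of all, and was the lowest in myelin genes (-0.38). The sequencing depth is unknown, because TPM values do not hold it.

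No gene passed a test for a change in both housings. The joint test, which takes the weaker of the 2 within-housing p-values when both point the same way, called 0% of the 14947 genes at an adjusted p of 0.05 (limma, Benjamini-Hochberg), and 87 genes were below an unadjusted p of 0.05 in both housings with the same sign, against 51 with opposite signs. The 87 comprised 43 higher and 44 lower after ethanol. The ethanol difference averaged over housing was called in 2 genes (0.0134% of those tested), and neither was shared. The pseudogene Gm44922 was at 8.47, 8.41 and 8.35 in standard saline libraries and listed at 0 in the remaining 9 (adjusted p = 0.00263, limma). The unnamed gene ENSMUSG00000118641 showed the reverse, with 10.4, 5.69 and 4.41 in standard ethanol libraries and 0 listed elsewhere (limma adjusted p = 0.0418). These 2 genes were the only ones called for an ethanol by housing interaction. Each thus differed between ethanol and saline in standard cages alone.

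Across the transcriptome, about as many genes differed in opposite directions in the 2 housings as in the same one. The 2 within-housing differences share no library, and 7502 of 14947 genes (50.2%) had the same sign in both. Across genes, the 2 log2 fold changes had a Pearson correlation of 0.035 and a Spearman correlation of -0.0044; genes of one library share its preparation and are no replicates. Of the 1105 genes with an unadjusted p under 0.05 in standard cages, 582 (52.7%) had the same sign in enriched cages. Of the 1160 such genes in enriched cages, 610 (52.6%) had the same sign in standard cages. Among the 138 genes below that p in both, 63.0% shared their sign. With single libraries left out, the share of all genes with the same sign ran from 45.8% (without standard saline replicate 1) to 53.2% (without standard saline replicate 3). For the difference averaged over housing, 594 genes (3.97%) were higher and 605 (4.05%) lower at an unadjusted p under 0.05, 8.02% in all. These shares stand beside every list count at that p given below.

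A set of genes nevertheless had no overlap between the ethanol and saline libraries in either housing. In 65 genes (0.435%) all 3 ethanol libraries lay above all 3 saline libraries of the same housing in both housings, and in 82 (0.549%) they lay below. Together these 147 genes (0.983%) stand beside 113 (0.756%) that separated in both housings but in opposite directions. That order turned without standard saline replicate 1 (115 higher and 124 lower, 291 opposite), standard ethanol replicate 1 (91, 117 and 267) or enriched ethanol replicate 3 (106, 142 and 318), and without the 3 libraries set apart by markers (286, 388 and 691). In 1 housing alone, 1809 genes (12.1%) separated in standard and 2276 (15.2%) in enriched cages. In 23 genes (0.154%) all 6 ethanol libraries exceeded all 6 saline libraries, and in 39 (0.261%) all 6 lay below. The shared differences were small: the median size of the log2 difference was 0.28 in the higher and 0.20 in the lower genes, and 5 of the 147 differed by more than 2-fold. None of the 147 passed the test adjusted over all genes.

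**Figure D1:**
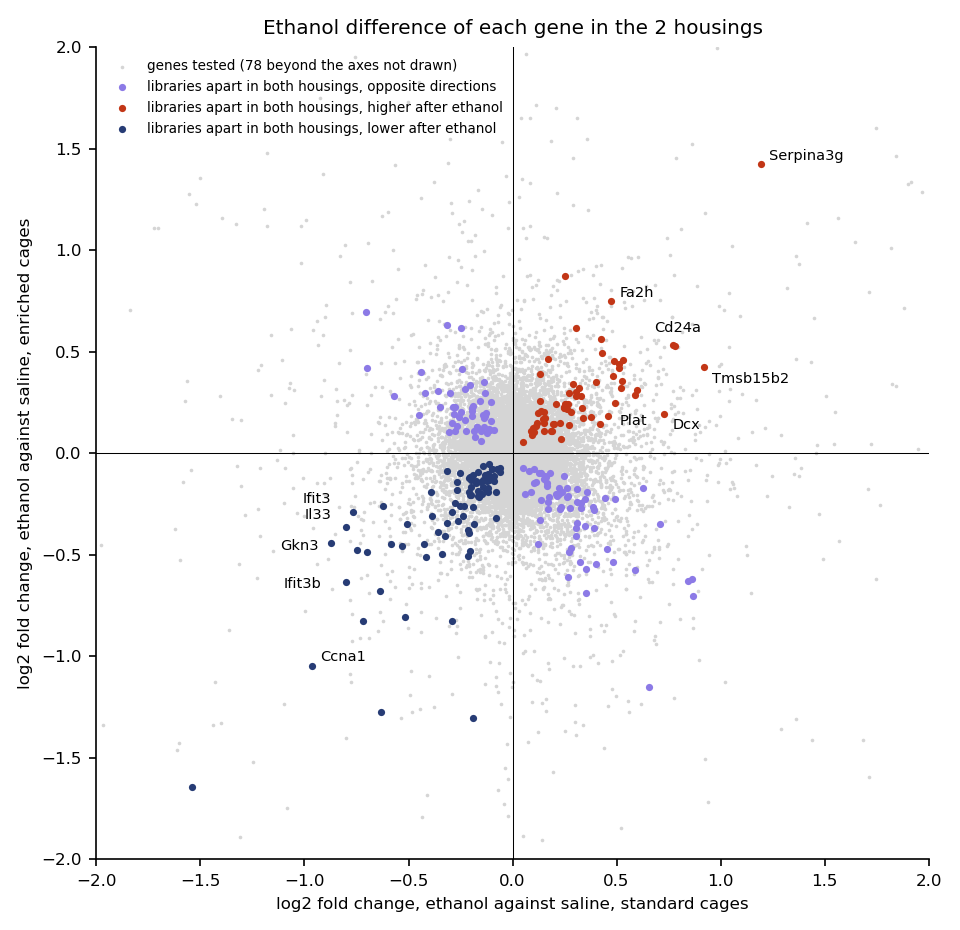
Log2 fold change of ethanol against saline for each gene, in standard cages (horizontal axis) and in enriched cages (vertical axis). Grey points are all genes tested, except 78 beyond the axes; red and dark blue points are the 65 higher and 82 lower genes whose libraries do not overlap in either housing, and violet points the 113 that separate in opposite directions. The cloud has no slope, and the red and blue points lie on the diagonal side because of how they were picked.

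The higher set held several genes of newborn neurons. Sox11, a transcription factor of immature neurons (chromosome 12, 27334264 to 27342574, GRCm38), was at 7.12, 8.68 and 7.90 TPM in standard saline and 11.7, 11.3 and 10.7 in standard ethanol libraries. In enriched cages it was at 8.10, 8.78 and 9.08 with saline and 12.5, 11.99 and 11.6 with ethanol. All 6 ethanol libraries lay above all 6 saline libraries, and the log2 difference was nearly the same in both housings, 0.49 (SE 0.10) and 0.46 (SE 0.10). Averaged over housing, Sox11 differed by 0.47 (SE 0.07), with a limma adjusted p of 0.101, which misses the threshold. In a mixed tissue, more cells of a type and more RNA per cell cannot be told apart.

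Doublecortin (Dcx), which stabilises microtubules in migrating young neurons (chromosome X, 143855842 to 143933311), was at 5.46, 4.06 and 6.04 in standard saline, 9.85, 7.92 and 8.77 in standard ethanol, 7.53, 6.66 and 7.21 in enriched saline and 8.27, 8.39 and 7.96 in enriched ethanol libraries. The 6 ethanol libraries again lay above all 6 saline libraries. The gap was wide in standard cages (0.73, SE 0.14) and narrow in enriched cages (0.19, SE 0.14), where saline libraries were already high. The difference between the housings did not pass (interaction, limma adjusted p = 0.614), nor did the average of 0.46 (limma adjusted p = 0.329). Cd24a, a surface glycoprotein of neuroblasts and ependymal cells, was at 10.4, 10.7 and 10.5 against 23.0, 15.8 and 17.2 in standard cages, and at 8.37, 8.42 and 7.29 against 8.74, 11.8 and 15.6 in enriched cages. It separated within each housing, though enriched ethanol replicate 1 exceeded its saline neighbours only narrowly.

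Of the 36 tested genes of the adult neurogenesis list, 13 were higher and 1 lower at an unadjusted p under 0.05. The 3 that separated in both housings were Sox11, Dcx and Cd24a. Over all genes, 3.97% were higher and 4.05% lower at that p, and 0.435% were higher without overlap in both housings. None of the 36 passed after adjustment over all genes. The list's median log2 difference was 0.19 in standard and 0.09 in enriched cages, beside 0.00 and -0.01 over all genes tested. The sign was the same in both housings for 22 of the 36 (61.1%), beside 50.2% of all genes. The enriched median was 0.01 without enriched saline replicate 2 or without enriched ethanol replicate 3, and the averaged median stayed between 0.12 and 0.18 as single libraries were left out. The mean of the list was higher in every ethanol library than in every saline library of its housing, the only list of 31 for which this held in both. Dpysl3, a growth cone protein, was at 28.9, 26.2 and 28.1 against 40.7, 42.4 and 36.5 in standard cages, and at 34.2, 29.3 and 35.3 against 34.6, 36.5 and 42.9 in enriched cages, where the libraries overlapped. Igfbpl1, a secreted protein of neuronal progenitors, was at 1.70, 1.16 and 0.429 against 3.87, 2.97 and 3.31 in standard cages and at 2.32, 1.12 and 0.630 against 2.89, 1.63 and 4.90 in enriched cages. The 1 lower member was Hes5, the Notch target that keeps progenitors from becoming neurons: it was at 16.5, 17.5 and 16.7 against 10.5, 9.71 and 13.3 in standard cages, and at 13.2, 15.2 and 18.3 against 10.4, 10.97 and 13.3 in enriched cages. The enriched groups missed separating by 1 ethanol library. Hes5 thus lay opposite to the immature neuron genes in both housings, with an average difference of -0.50 (SE 0.10, limma adjusted p = 0.290).

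**Figure D2:**
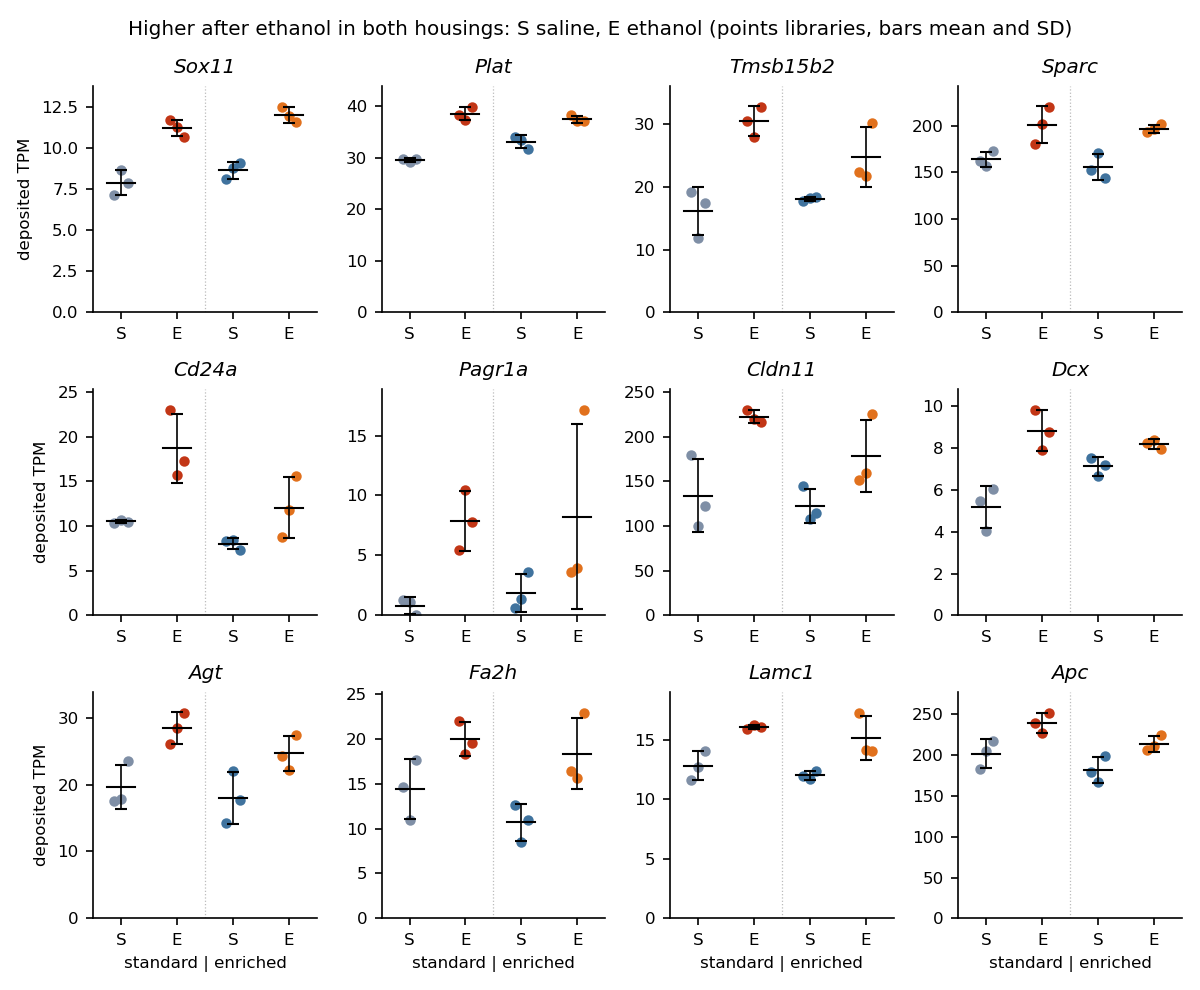
Deposited TPM of the 12 named genes with the smallest p-value among those higher after ethanol in both housings, 1 panel per gene. Points are libraries, horizontal bars the group mean and whiskers the SD of 3 libraries; S is saline and E ethanol, with standard cages left of the dotted line and enriched cages right of it. In Sox11 all 6 ethanol libraries lie between 10.7 and 12.5 and all 6 saline libraries between 7.12 and 9.08.

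Genes of the growing cytoskeleton were higher too, in part. Map2, the dendritic microtubule protein, was at 997, 1054 and 1032 against 1096, 1076 and 1110 in standard cages, and all 6 of its ethanol values (1076 to 1147) exceeded all 6 saline values (997 to 1054), although the average difference was only 0.10 (SE 0.03). Tmsb15b2, a thymosin gene for a small protein that binds actin monomers, was at 19.2, 11.9 and 17.4 against 30.6, 28.1 and 32.9 in standard cages and at 17.7, 18.3 and 18.4 against 22.3, 21.7 and 30.3 in enriched cages. It overlaps Tmsb15b1 and Tmsb15l on the same strand, between which reads may be divided. The sum of the 3 genes separated in standard cages (37.7, 29.5 and 33.6 against 50.3, 44.3 and 51.4) and overlapped in enriched cages (37.1, 39.7 and 42.7 with ethanol, up to 37.3 with saline). Apc, which binds microtubule ends and restrains Wnt signalling, was at 183, 205 and 217 against 240, 227 and 252 in standard cages and at 179, 167 and 199 against 206, 212 and 225 in enriched cages. It shares its locus with the antisense gene Gm10548. In the list of microtubule and growth cone genes, 13 of 42 were higher and 1 lower at an unadjusted p under 0.05. Over all genes, 3.97% were higher and 4.05% lower. This list shares members with the neurogenesis list, Dcx and Dpysl3 among them, so the counts of these lists are not independent. Its medians were 0.11 and 0.05 in the 2 housings, and its library means separated in standard cages only. The same sign in both housings was found in 20 of the 42 (47.6%), beside 50.2% of all genes.

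Genes of mature myelin formed the other large block of higher values. Cldn11, the tight junction protein that seals myelin layers (chromosome 3, 31149920 to 31164324), was at 179, 100 and 123 in standard saline, 230, 220 and 216 in standard ethanol, 144, 108 and 114 in enriched saline and 151, 159 and 225 in enriched ethanol libraries. Fa2h, which hydroxylates the fatty acids of myelin lipids, was at 14.7, 10.99 and 17.7 against 22.03, 18.3 and 19.6 in standard cages and at 12.6, 8.53 and 10.9 against 16.5, 15.7 and 22.9 in enriched cages. Both separated within each housing but not across them, since enriched ethanol replicates 1 and 2 lay below standard saline replicate 1 for Cldn11 and below standard saline replicate 3 for Fa2h. The average log2 differences were 0.65 (SE 0.14) for Cldn11 and 0.61 (SE 0.14) for Fa2h, with limma adjusted p of 0.299 and 0.329. Ugt8a, the enzyme that makes galactosylceramide, was at 64.3, 37.2 and 45.4 against 69.3, 67.7 and 68.1, and at 41.2, 41.2 and 41.6 against 49.7, 51.4 and 66.5. In enriched cages, ethanol replicate 3 held the highest value of all 3 genes, well above replicates 1 and 2.

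Of 30 tested myelin and oligodendrocyte genes 13 were higher and 0 lower at an unadjusted p under 0.05, and 4 separated in both housings. Over all genes, 3.97% were higher and 4.05% lower at that p, and 0.435% were higher without overlap in both housings. The list's medians were 0.19 and 0.24, but its library means overlapped in both housings. Standard saline replicate 1 (0.30) exceeded every standard ethanol library (0.16 to 0.26). Enriched ethanol replicate 1 (-0.14) lay below enriched saline replicate 1 (-0.11), and enriched ethanol replicate 2 (-0.10) only just above it. Without standard saline replicate 2 the averaged median was 0.14 in place of 0.24, with 9 members higher and 1 lower, and the median in standard cages was 0.03. Without the 3 libraries that stood apart the averaged median was 0.09, with 6 higher and 1 lower, and the median in standard cages was -0.03. The median in enriched cages was 0.06 without enriched ethanol replicate 3. In precursors and differentiating oligodendrocytes, 7 of 20 genes were higher and 0 lower, with medians of 0.18 and 0.07. Gpr17, a receptor of the committed precursor, was at 18.6, 15.8 and 20.8 against 30.3, 32.4 and 28.5 in standard cages and at 20.5, 13.9 and 20.99 against 21.8, 20.3 and 27.8 in enriched cages, where 1 ethanol library overlapped. Tmem100, a membrane protein and one of this list's 2 members apart in both housings, was at 10.4, 9.13 and 10.5 against 12.2, 14.1 and 14.3 and at 10.6, 10.3 and 10.9 against 11.1, 12.5 and 11.7. Cnksr3, a scaffold of kinase signalling and the other member, was at 4.34, 3.49 and 2.74 against 5.49, 5.35 and 4.83 and at 2.80, 3.70 and 3.81 against 3.95, 4.70 and 4.88. Without enriched ethanol replicate 3 the averaged median of the precursor list was 0.04 in place of 0.12, and its median in enriched cages was -0.02 in place of 0.07. The library means of the precursor list separated in standard cages only.

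Plat, Sparc and Lamc1 encode secreted proteins that separated in both housings. Plat, tissue plasminogen activator (chromosome 8, 22757727 to 22782844), which cleaves plasminogen and acts on synapses, was at 29.7, 29.2 and 29.7 in standard saline, 38.4, 37.4 and 39.9 in standard ethanol, 34.1, 33.5 and 31.7 in enriched saline and 38.3, 37.1 and 37.1 in enriched ethanol libraries. The 4 groups were tight and all 6 ethanol libraries were higher. It was the 1 gene of 13 in the plasminogen activator and serpin list to separate in both housings, beside 0.435% of all genes, higher. In 2 of the 13 (15.4%) the sign was the same in both, beside 50.2% of all genes. The log2 difference of Plat was 0.38 (SE 0.06) in standard and 0.18 (SE 0.06) in enriched cages, and the average of 0.28 had a limma adjusted p of 0.101. Sparc, a matrix glycoprotein secreted by glia and vessel cells, was at 162, 157 and 173 against 181, 202 and 221 in standard cages and at 152, 171 and 144 against 193, 196 and 202 in enriched cages. Again all 6 ethanol libraries lay above all 6 saline libraries, with an average difference of 0.31 (SE 0.06, limma adjusted p = 0.244). Lamc1, the laminin gamma 1 chain of basement membranes, was at 11.7, 12.7 and 14.1 against 15.9, 16.2 and 16.1 and at 11.95, 11.7 and 12.4 against 17.3, 14.2 and 14.05. It overlaps the antisense gene Gm8818. Of the 49 matrix genes tested 10 were higher and 0 lower at an unadjusted p under 0.05, beside 3.97% and 4.05% of all genes. Yet the median was 0.12 in standard and 0.00 in enriched cages. The same sign in both was found in 20 of the 49 (40.8%), beside 50.2% of all genes.

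Among astrocyte genes, Agt and Gja1 separated in both housings. Agt, angiotensinogen, which astrocytes secrete, was at 17.5, 17.9 and 23.5 against 26.1, 28.5 and 30.8 in standard cages and at 14.3, 22.04 and 17.7 against 24.3, 22.2 and 27.5 in enriched cages. Gja1, the gap junction protein connexin 43, was at 173, 138 and 165 against 182, 177 and 186 and at 151, 157 and 152 against 167, 160 and 182. The list as a whole had 4 of 24 genes higher and 1 lower at an unadjusted p under 0.05, beside 3.97% and 4.05% of all genes. Its library means separated in enriched cages only. Gfap, the intermediate filament of reactive astrocytes, separated in enriched cages only. It was at 260, 220 and 267 against 252, 248 and 253 in standard cages and at 169, 202 and 166 against 276, 251 and 242 in enriched cages. The difference between the housings did not pass for Gfap (interaction, limma adjusted p = 0.509).

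The lower set held genes of other kinds. Rbm3, a cold-inducible protein that binds RNA and supports translation at synapses (chromosome X, 8138975 to 8145880), was at 240, 258 and 237 in standard saline, 180, 179 and 202 in standard ethanol, 170, 172 and 200 in enriched saline and 144, 163 and 130 in enriched ethanol libraries. Cirbp, its relative (chromosome 10, 80165985 to 80172786), was at 100, 95.0 and 90.7 against 74.7, 67.1 and 89.5 in standard cages and at 97.3, 93.6 and 86.0 against 72.1, 74.3 and 71.1 in enriched cages. Each separated within both housings. For Rbm3 the saline libraries of enriched cages were themselves as low as the ethanol libraries of standard cages, so that the lowest values of all were those of enriched ethanol. The differences were alike in the housings, -0.39 and -0.31 for Rbm3 (SE 0.09 each) and -0.31 and -0.34 for Cirbp (SE 0.09 each). The limma adjusted p of the average was 0.244 for Rbm3 and 0.283 for Cirbp. Their list of RNA-binding and RNA-processing genes had no common direction. Of its 24 genes, Rbm3 and Cirbp included, 4 were lower and 0 higher at an unadjusted p under 0.05. The medians were -0.05 and 0.02. Body temperature and the hour of killing are not in the labels.

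**Figure D3:**
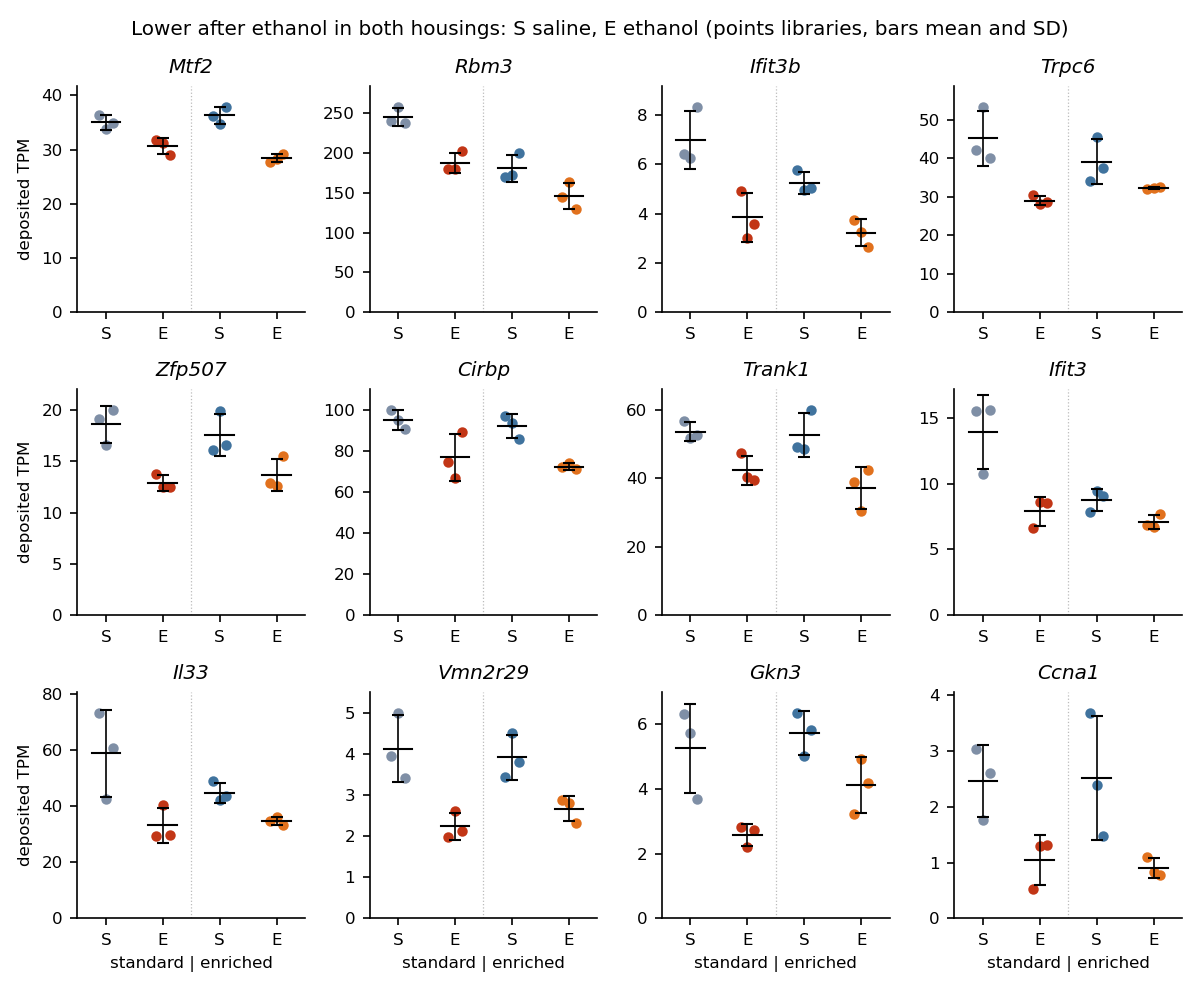
Deposited TPM of the 12 named genes with the smallest p-value among those lower after ethanol in both housings, 1 panel per gene. Points are libraries, horizontal bars the group mean and whiskers the SD of 3 libraries; S is saline and E ethanol, with standard cages left of the dotted line and enriched cages right of it. In Mtf2 all 6 ethanol libraries lie between 27.7 and 31.8 and all 6 saline libraries between 33.7 and 37.9.

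Of the 39 interferon response genes tested, 5 were lower in both housings without overlap and none was higher. Over all genes tested, the shares were 0.549% lower and 0.435% higher. Ifit3 and Ifit3b, neighbouring copies of an antiviral gene that interferon induces, sit on the same strand of chromosome 19. Their RefSeq promoters are shown because both hold the core of the interferon-stimulated response element (GAAA, any 2 bases, GAAA), which is bound by the STAT and IRF factors that interferon activates. The 250 bases before each start are given 5′ to 3′ in lower case, with the element's copies in capitals; both copies lie on the opposite strand and so read as the reverse complement. The build is GRCm38.p6, with the plus strand of chr19:34583279-34583528 for Ifit3 and of chr19:34607707-34607956 for Ifit3b.
Ifit3: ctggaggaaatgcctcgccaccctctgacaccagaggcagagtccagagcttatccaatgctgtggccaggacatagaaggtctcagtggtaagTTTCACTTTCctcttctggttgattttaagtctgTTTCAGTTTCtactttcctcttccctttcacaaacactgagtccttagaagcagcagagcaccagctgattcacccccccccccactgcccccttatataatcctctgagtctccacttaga
Ifit3b: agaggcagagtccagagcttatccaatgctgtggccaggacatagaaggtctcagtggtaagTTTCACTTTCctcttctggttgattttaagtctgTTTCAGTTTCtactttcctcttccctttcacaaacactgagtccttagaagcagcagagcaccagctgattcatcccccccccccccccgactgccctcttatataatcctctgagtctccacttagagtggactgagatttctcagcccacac

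The copies lie 156 and 122 bases before the start of Ifit3 and 188 and 154 before that of Ifit3b, and 216 of 218 aligned bases (99.1%) are identical. In the windows searched, from 250 before to 50 after a start and on both strands, 398 of 11016 tested genes with a promoter in the table (3.61%) held the element. It was found in 15 of 31 interferon response genes (48.4%), in 8 of 70 genes lower in both housings (11.4%) and in 4 of 49 higher in both (8.16%). Of the 8, Ifit3, Ifit3b and Trim30a are in the interferon list. A match of letters is a description of the sequence and shows no binding.

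Ifit3 was at 15.5, 10.7 and 15.6 in standard saline, 6.64, 8.58 and 8.51 in standard ethanol, 7.84, 9.40 and 9.03 in enriched saline and 6.82, 6.73 and 7.66 in enriched ethanol libraries. Ifit3b was at 6.42, 6.24 and 8.35 against 4.93, 3.02 and 3.60 in standard cages and at 5.77, 4.97 and 5.04 against 3.77, 3.26 and 2.66 in enriched cages. Reads can be divided wrongly between such close copies, so their sum was also taken: 21.9, 17.0 and 24.0 against 11.6, 11.6 and 12.1 in standard cages, and 13.6, 14.4 and 14.1 against 10.6, 9.99 and 10.3 in enriched cages. The sum separated in both housings, and all 6 ethanol libraries were below all 6 saline libraries. The average log2 difference was -0.53 (SE 0.11) for Ifit3 and -0.72 (SE 0.13) for Ifit3b, with limma adjusted p of 0.290 and 0.244. Ifi27, a small mitochondrial protein induced by interferon, was at 62.4, 56.6 and 55.9 against 54.0, 50.05 and 47.4 and at 53.9, 78.9 and 55.4 against 41.4, 44.6 and 46.3. Tap1, which pumps peptides to class I molecules and overlaps the antisense gene Psmb9, was at 2.62, 2.69 and 2.94 against 2.43, 2.34 and 2.14 and at 2.17, 3.07 and 2.88 against 1.74, 2.03 and 2.08. Trim30a, which dampens innate immune signalling, was at 2.04, 1.51 and 1.49 against 1.48, 1.27 and 1.38 and at 2.54, 1.78 and 1.73 against 1.59, 1.21 and 1.40.

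These were 5 of the 39 interferon genes tested, with the close copies Ifit3 and Ifit3b counted separately. At an unadjusted p under 0.05, 6 of the 39 were lower and 0 higher, beside 4.05% and 3.97% of all genes. Trim30a was not among the 6. Ifit2, a further family member, was among the 6, at 9.18, 6.02 and 8.17 against 5.15, 5.69 and 6.83 in standard cages and 7.601, 6.78 and 8.51 against 5.92, 6.503 and 5.48 in enriched cages, with overlap in standard cages only. In both housings 18 of the 39 were lower and 6 higher, beside 3843 and 3659 of all 14947 genes. The medians of the list were -0.11 and -0.16, but its library means overlapped in both housings. The averaged median of -0.10 was -0.07 without standard saline replicate 3 and -0.05 without enriched saline replicate 2. Microglia, which respond to and produce interferon, had medians of -0.05 and -0.02, with 2 of 24 marker genes higher and 1 lower.

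Il33, a nuclear alarmin cytokine expressed by oligodendrocytes and astrocytes, was at 73.3, 42.4 and 60.5 against 29.4, 40.4 and 29.6 in standard cages and at 48.7, 42.0 and 43.5 against 34.5, 36.0 and 33.1 in enriched cages. All 6 ethanol libraries were below all 6 saline libraries, although standard saline replicate 2 came close to standard ethanol replicate 2. It lay opposite to the myelin genes above, with an average difference of -0.58 (SE 0.12, limma adjusted p = 0.290).

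The smallest p among the lower shared genes was that of Mtf2, the Polycomb-like subunit that brings the methylating complex to CpG islands (chromosome 5, 108065674 to 108109004). It was at 36.4, 33.7 and 34.9 against 31.8, 31.2 and 29.0 in standard cages and at 36.2, 34.7 and 37.9 against 27.7, 28.3 and 29.1 in enriched cages. Its average difference was -0.27 (SE 0.05, limma adjusted p = 0.244), and it overlaps the antisense gene Tmed5. Cbx2, a subunit of the other Polycomb complex that binds the methyl mark, lay the other way, at 0.912, 0.927 and 1.42 against 1.58, 1.61 and 1.92 and at 0.992, 0.674 and 1.12 against 1.39, 1.31 and 1.33. These were the 2 shared genes among 55 Polycomb, DNA methylation and chromatin enzymes, of which 4 were higher and 3 lower at an unadjusted p under 0.05. Zfp507, a zinc finger protein, was at 19.1, 16.6 and 20.03 against 13.8, 12.4 and 12.5 and at 16.1, 19.9 and 16.6 against 12.9, 12.6 and 15.5. Ccna1, the germline cyclin A1, was at 3.03, 1.77 and 2.60 against 0.521, 1.30 and 1.32 and at 3.69, 2.38 and 1.47 against 1.102, 0.827 and 0.771. Both had all 6 ethanol libraries below all 6 saline libraries, and Ccna1 had an average difference of -1.01 (SE 0.23, limma adjusted p = 0.352).

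Trpc6, a calcium-permeable channel of mature dentate granule cells (chromosome 9, 8544142 to 8680741), was at 42.1, 53.4 and 40.0 in standard saline, 30.3, 28.0 and 28.6 in standard ethanol, 34.2, 45.6 and 37.5 in enriched saline and 32.0, 32.2 and 32.6 in enriched ethanol libraries. All 6 ethanol libraries were lower, by 0.62 (SE 0.12) in standard and by 0.26 (SE 0.12) in enriched cages on the log2 scale. It was the only one of 20 granule cell markers to separate in both housings, beside 0.549% of all genes lower without overlap. Trpc6 included, 5 of the 20 were lower in both housings and 0 higher in both, beside 3843 and 3659 of all 14947 genes. The sign was thus the same in both for 25% of the list, beside 50.2% of all genes. At an unadjusted p under 0.05, 4 were lower and 0 higher, beside 4.05% and 3.97% of all genes. The list median was -0.23 in standard but 0.12 in enriched cages. Plk5, a kinase of granule cells, was at 14.8, 21.9 and 12.7 against 8.07, 6.88 and 9.60 in standard cages and at 8.72, 15.4 and 10.1 against 10.0002, 8.87 and 11.2 in enriched cages. In both housings, saline replicate 2 held the highest value of Trpc6 and Plk5, and standard saline replicate 2 was also the highest library for the whole list. The part of granule cell content in the result for Trpc6 was not tested.

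Trank1, a large protein of ankyrin and tetratricopeptide repeats, was at 56.7, 51.6 and 52.6 against 47.3, 40.4 and 39.4 in standard cages and at 49.1, 48.6 and 60.0 against 39.0, 30.4 and 42.3 in enriched cages, with no overlap across all 12 libraries. Gkn3, a gastrokine gene expressed in arterial endothelium, was at 6.31, 5.73 and 3.68 against 2.81, 2.20 and 2.72 and at 6.35, 5.003 and 5.81 against 3.22, 4.93 and 4.17. Vmn2r29, named as a vomeronasal receptor, was at 3.96, 5.01 and 3.41 against 1.98, 2.61 and 2.13 and at 3.44, 4.53 and 3.81 against 2.89, 2.80 and 2.32. It overlaps Gm45844 on the same strand, and such receptor genes have many near copies, so its values are uncertain. Pagr1a, which takes part in a histone methylating complex, had the widest difference of the named higher genes (2.30, SE 0.46), with 1.29, 1.14 and 1e-06 against 5.41, 10.4 and 7.79 in standard and 0.603, 1.33 and 3.60 against 3.62, 3.91 and 17.2 in enriched cages. Its lowest enriched ethanol value (3.62) barely exceeded the highest enriched saline value (3.60), and it overlaps Pagr1b, between which reads may be divided. The sum of both separated in each housing as well, with an average of 2.15.

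Stress and activity genes had 1 or no shared member each. Hsph1, a chaperone of the Hsp110 family, was at 157, 154 and 163 against 169, 175 and 175 in standard cages and at 178, 170 and 143 against 239, 224 and 180 in enriched cages. Its promoter was the only one of the 49 higher genes to hold a heat shock element (GAA, any 2 bases, TTC, any 2 bases, GAA; either strand), present in 61 of 11016 promoters (0.554%). Of 40 heat shock and unfolded protein genes, 7 were higher and 0 lower, with medians of 0.02 and 0.12, and that number ran from 1 to 14 as single libraries were left out. Cdkn1a, the cell cycle inhibitor p21 and a target of the glucocorticoid receptor, was at 2.20, 1.88 and 2.52 against 2.74, 3.41 and 3.75 and at 3.94, 3.80 and 3.003 against 4.22, 4.03 and 4.70. Of 24 glucocorticoid response genes 5 were higher and 0 lower, and the median was 0.00 in standard and 0.24 in enriched cages. The library means of that list were 0.42 and 0.37 in enriched ethanol replicates 1 and 2 but -0.11 in replicate 3. Without replicate 3, 10 of the 24 were higher and the enriched median was 0.35; without replicate 1 it was 0.20 and without replicate 2 it was 0.22. None of the 27 immediate-early genes separated in both housings, although their medians were 0.17 and 0.14. Their averaged median of 0.16 dropped to 0.08 when standard saline replicate 2 was left out and to 0.10 when standard ethanol replicate 3 was.

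**Figure D4:**
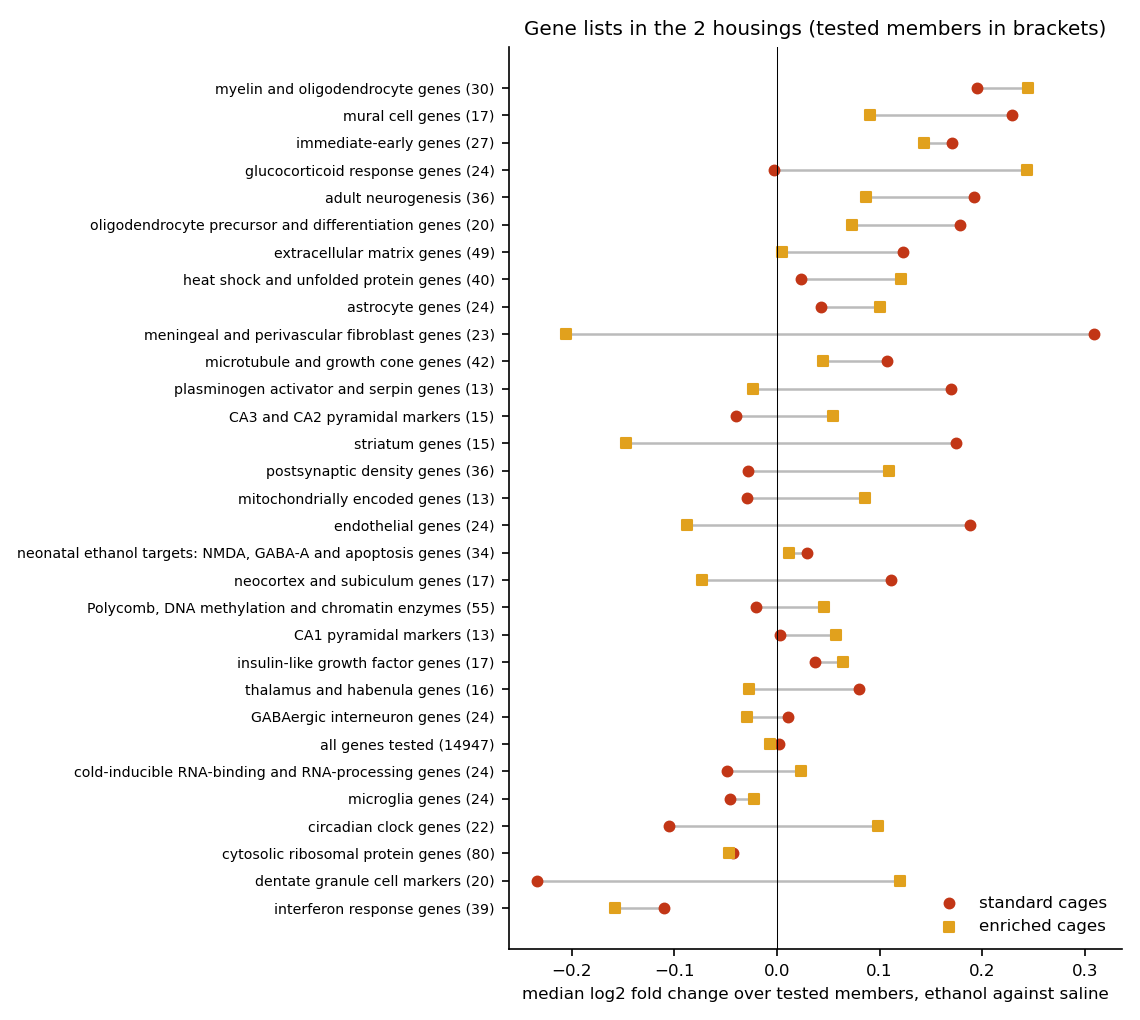
Median log2 fold change of ethanol against saline over the tested members of each gene list, in standard (red circles) and enriched cages (yellow squares), ordered by the averaged median; the number of tested members is in brackets. Myelin, neurogenesis and interferon lists are among the many with both medians on 1 side of 0. Fibroblast, dentate granule cell, striatum and endothelial lists are among those that change sign. The choroid plexus list, with medians of 0.01 and -1.104, is not drawn.

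Several cell type lists lay on opposite sides of 0 in the 2 housings. Meningeal and perivascular fibroblast genes had medians of 0.31 in standard and -0.21 in enriched cages. The standard one was 0.68 without standard saline replicate 1 and 0.00 without replicate 2 of that group, and 0.17 once standard ethanol replicate 3 was left out, and the enriched one -0.07 without enriched saline replicate 2. The medians were 0.19 and -0.09 for endothelial genes, 0.17 and -0.15 for striatum genes, and -0.11 and 0.10 for circadian clock genes. The enriched median was as near to 0 as -0.03 for endothelial genes (without enriched saline replicate 2) and 0.03 for clock genes (without the same library), and these 3 lists kept their signs as single libraries were left out. The choroid plexus list had 0.01 and -1.104, and without enriched saline replicate 2, the library of very high Ttr, -0.07 and 0.09 over 14 members. Mural cell genes, by contrast, were at 0.23 and 0.09, with 2 of 17 higher, 0 lower and no member apart in both housings. Ribosomal protein genes had the same sign in both housings in 64 of 80 genes (80.0%), beside 50.2% of all genes, and 57 of the 64 were lower. Their medians were only -0.04 and -0.05, and their library means overlapped in both housings. Standard saline replicate 1 was the highest library for that list (mean deviation 0.16), and without it the standard median was 0.02. Interneuron genes were at 0.01 and -0.03 and CA1 genes at 0.00 and 0.06, with no member apart in both housings. The part of tissue makeup in the gene differences was not tested.

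**Figure D5:**
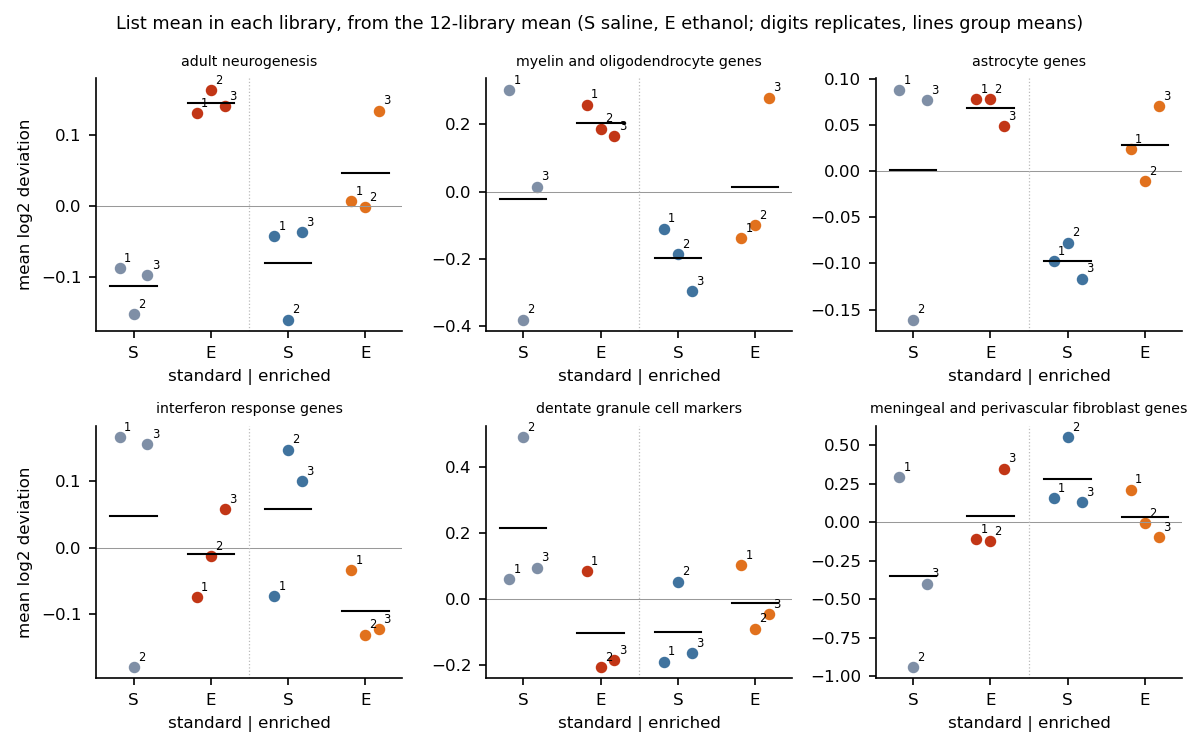
Mean of 6 gene lists in each library, as the log2 deviation from the mean of all 12 libraries. Points are libraries marked with their replicate number, and lines are group means; S is saline and E ethanol, with standard cages left of the dotted line. The neurogenesis mean separates ethanol from saline in both housings, the astrocyte mean in enriched cages only, and the other 4 lists overlap within each housing.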

How the data were processed

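RNA from 12 dissected hippocampi was sequenced after ribosomal RNA depletion with a stranded kit, per the labels' protocols; the submitters' processing notes name CASAVA, kallisto, sleuth and mm10, without versions or roles, and the sources used here do not say whether strand was used. The table deposited by the authors is named as TPM, but its columns sum to 973187 to 1024536, so it was treated as a deposited signal proportional to TPM, where TPM had been assumed; the test is the same. Depth is unknown, and a 0 can be a failed estimate. All 12 columns were matched by name. No libraries were identical, and their Spearman correlations ran from 0.947 to 0.951.

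Values were analysed as log2(value + 0.5) for genes with a mean of at least 1; fold changes on this scale understate those of low genes. Group means were fitted for the 4 groups with limma 3.58.1 (R 4.3.3; 8 residual degrees of freedom) and a mean-variance trend. Two-sided p-values were adjusted by Benjamini-Hochberg over the 14947 genes, with a threshold of 0.05, and the procedure was tested on simulated data. The joint test took the larger of the 2 within-housing p-values where signs matched. The labels do not say whether mice came from separate litters, so the p-values cover only the spread among these 12 libraries, which may be technical. Names, positions and overlaps come from GENCODE M21 on GRCm38, matched for 35879 of 36119 genes, and promoters from RefSeq (GRCm38.p6), matched for 11016 tested genes.

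The genes, the 31 lists and the tests were chosen with earlier results of these data known. Named genes are those called, the 12 protein-coding genes of smallest p in each direction among those apart in both housings (predicted names left out), list members apart in both, and up to 4 members of smallest p per list described. Alternatives covered the pseudocount, filter, scaling, trend, robust fit, additive model, replicate block, gene type and libraries left out. The values of 1 list member apart in both housings are not reported here.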

Additional observations from a re-analysis of the deposited data

Results flagged for a closer look

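The ethanol difference itself changed between housings in Gm44922 (enriched minus standard difference 4.16 on the log2 scale, limma adjusted p = 0.00263) and ENSMUSG00000118641 (-3.79, limma adjusted p = 0.0418), as tested by the interaction.

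A single library lay far from the other 5 of its treatment in 9 of 114 sets of 6 libraries checked, where chance gives about 1 in 20. For list means, as log2 deviations from the 12-library mean, the choroid plexus genes were at 0.859 in standard ethanol replicate 1 (others -0.552 to -0.393) and at 3.32 in enriched saline replicate 2 (others -0.779 to -0.0517). Immediate-early genes were at -0.536 in standard saline replicate 2 (others -0.105 to 0.0756), and heat shock genes at 0.103 in enriched saline replicate 2 (others -0.119 to -0.0636). Circadian clock genes were at -0.183 in enriched ethanol replicate 3 (others -0.00701 to 0.0696), and mitochondrially encoded genes at 0.310 in standard ethanol replicate 1 (others -0.0889 to 0.0110). Among shared genes, Tmsb15b2 was at 11.9 in standard saline replicate 2 (others 17.4 to 19.2), Cirbp at 89.5 in standard ethanol replicate 3 (others 67.1 to 74.7) and Pagr1a at 3.60 in enriched saline replicate 3 (others up to 1.33).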

How the results depend on the processing

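The joint test called 0 genes under every alternative run except without enriched saline replicate 3, where it called 1, the pseudogene Gm38364 (range 0 to 1 over single libraries left out). The 2 calls for the average were 0 with a pseudocount of 0.1, a mean of at least 5, the additive model, protein-coding genes only or the 3 libraries that stood apart left out together. They were 1 with quantile normalization, 6 with no filter on the mean, and 1 to 10 with single libraries left out (10 without enriched ethanol replicate 3). Interaction calls were 0 with a pseudocount of 0.1, a mean of at least 5 or protein-coding genes only, 1 with quantile normalization, 4 with no filter, and 1 to 12 with single libraries left out (7 without standard saline replicate 2, 12 without enriched ethanol replicate 3). Replicate numbers did not pair the libraries: the deviations of 18 same-number pairs correlated at -0.15 to 0.058, and 2 of 12 libraries correlated best with their own number. With the replicate block, 1 gene was called for the average.

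Non-overlap is easier with fewer libraries: without single ones, 91 to 172 genes were higher, 117 to 172 lower and 142 to 318 opposite, and without the 3 together 286, 388 and 691. The opposite genes then outnumbered the higher and lower ones together without standard saline replicate 1, standard ethanol replicate 1, enriched ethanol replicate 3 or the 3 together. With single libraries left out, the Pearson correlation was -0.012 to 0.067. The share of genes with the same sign was 44.9% with no filter and 45.8% to 53.2% with single libraries left out. A gene with a log2 fold change of 0 in 1 housing alone counted against that share, so the remainder is not all opposite in direction. For genes picked in standard cages that share was 43.1% to 56.5%, and for those picked in enriched cages 44.5% to 58.8%. Of 39 genes followed, none reversed under any alternative, and 18 losses of a call all concerned Gm44922 and ENSMUSG00000118641. Sox11 passed without the mean-variance trend (limma adjusted p = 0.0488; 0.0488 to 0.315 over all alternatives) and Plat with no filter (limma adjusted p = 0.0310; 0.0310 to 0.315). The median log2 difference of all genes stayed between -0.0039 and 0.00048.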

Other observations

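Some further list members lay on the same side in both housings without separating fully in each. Gabrd, the delta subunit of extrasynaptic GABA-A receptors, which neurosteroids modulate, was at 39.7, 28.7 and 28.4 TPM in standard saline, 21.6, 21.2 and 28.6 in standard ethanol, 29.5, 29.1 and 34.8 in enriched saline and 23.1, 25.2 and 25.1 in enriched ethanol libraries. Its averaged log2 difference was -0.38 (SE 0.10, limma adjusted p = 0.416), and only standard cages overlapped. Tet1, which oxidises methylated cytosine, was at 11.02, 7.40 and 8.22 against 11.1, 12.2 and 12.4 in standard cages, where it separated, and at 8.55, 8.43 and 11.5 against 11.5, 10.7 and 12.2 in enriched cages, where it overlapped. Tet3, of the same family, was at 9.97, 9.39 and 10.6 against 14.1, 11.9 and 13.6 in enriched cages and overlapped in standard cages (11.1, 11.3 and 13.8 against 16.6, 13.1 and 12.4). Their averaged differences were 0.35 (SE 0.11) and 0.30 (SE 0.09), with limma adjusted p of 0.5003 and 0.482. Fosl2, an AP-1 subunit, was at 17.7, 16.0 and 14.9 against 21.2, 20.2 and 20.9 in enriched cages and overlapped in standard cages.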
